A study of Mus musculus with 26 samples.

Results

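The genes described here are 8 members of the aryl hydrocarbon receptor (AhR) pathway, chosen by name from 55401 genes that were counted in the dorsal root ganglia of mice (DRG, where the cell bodies of sensory neurons lie beside the spinal cord) and in neurons cultured from them. They are the receptor gene *Ahr*, its dimer partners *Arnt* and *Arnt2*, the repressor *Ahrr*, and the target genes *Cyp1a1*, *Cyp1b1*, *Tiparp* and *Nqo1*. All 8 were found in both count tables, and all 8 had enough counts to be tested in every comparison. Among naive and injured ganglia, *Cyp1a1* had enough only through naive libraries. AhR is a transcription factor of the bHLH-PAS family that waits in the cytoplasm in a complex with the chaperone Hsp90, binds small aromatic ligands such as dioxin and tryptophan metabolites, moves to the nucleus and pairs with ARNT. The pair binds DNA at the xenobiotic response element and switches on genes of foreign-compound metabolism, of which *Cyp1a1* is the classic readout. Some of the targets act back on the receptor: AHRR competes for ARNT, and TIPARP attaches ADP-ribose to AhR and limits it.

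The series asked what loss of AhR in neurons does to ganglia after nerve injury. Conditional knockout (cKO) mice were Ahr f/f and carried Thy1-CRE(ERT2/EYFP), a tamoxifen-inducible Cre under the neuronal *Thy1* promoter, linked to a fluorescent reporter. Controls had floxed *Ahr* without Cre and were mixed in dose: controls 1 and 2 of the naive and of the injured group were Ahr fl/+ and control 3 was fl/fl, the 3 neuron controls were fl/fl, and of the 2 sham controls 1 was f/+ and 1 fl/fl. The naive and injured groups had 3 mice per genotype, all given tamoxifen at 28 weeks of age (100 mg/kg on 5 days), and their L4 to L6 ganglia were taken 5 weeks later, either without surgery or 1 day after the sciatic nerve was crushed. Supplemental libraries held ganglia from both sides of 2 sham-operated mice per genotype, 1 day after surgery, and semi-purified DRG neurons 24 h after seeding, 3 libraries per genotype; their age and any tamoxifen are not given in the labels used here. Naive and neuron libraries were all female and sham libraries all male. Each injured group was labelled as 2 females and 1 male. A Cre driven by *Thy1* is meant to act in neurons, and bulk ganglia also hold glia, vessels and connective tissue.

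The 26 libraries held 20169388 to 88180611 counts, lowest in the naive and injured ganglia (up to 23540375) and highest in 1 of the neuron libraries. In 2 injured libraries the sex read from transcripts went against the label: control replicate 3, labelled male, was female, and cKO replicate 2, labelled female, was male. By transcripts the injured controls were thus 3 females and the injured cKO ganglia 1 female and 2 males, so sex was uneven between genotypes after crush and between naive and injured cKO ganglia. With sex from transcripts as a covariate, the 3 members called after crush in cKO ganglia stayed at 3. The 4 called in control ganglia also stayed at 4. All naive and injured controls were female by transcripts, so the covariate could not adjust their effect. *Thy1* was higher in cKO than in control libraries of every setting without overlap, for example 1275 ± 73.4 against 705 ± 47.6 CPM (counts scaled to library size; SD, n = 3 each) in naive ganglia. *Ahr* counts themselves do not check the genotype, because they are summed over the whole gene and the floxed stretch was not counted apart.

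The promoters of 4 members are shown because their genes separated most clearly between cultured neurons and ganglia or after injury, and because 3 of them hold the core of the xenobiotic response element. Each runs from 250 bases before to 50 bases after the RefSeq transcription start on GRCm38.p6, in the direction of the gene; capitals mark GCGTG or, on the other strand, its complement CACGC. They lie at chr9:57697363-57697662 (plus strand), chr17:79715012-79715311 (minus), chr3:65528197-65528496 (plus) and chr8:107403156-107403455 (minus).
Cyp1a1: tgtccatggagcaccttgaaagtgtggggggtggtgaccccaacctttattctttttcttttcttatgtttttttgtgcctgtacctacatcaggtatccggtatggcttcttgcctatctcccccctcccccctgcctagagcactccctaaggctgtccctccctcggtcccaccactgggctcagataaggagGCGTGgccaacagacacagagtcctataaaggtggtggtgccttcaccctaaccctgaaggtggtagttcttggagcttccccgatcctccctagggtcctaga
Cyp1b1: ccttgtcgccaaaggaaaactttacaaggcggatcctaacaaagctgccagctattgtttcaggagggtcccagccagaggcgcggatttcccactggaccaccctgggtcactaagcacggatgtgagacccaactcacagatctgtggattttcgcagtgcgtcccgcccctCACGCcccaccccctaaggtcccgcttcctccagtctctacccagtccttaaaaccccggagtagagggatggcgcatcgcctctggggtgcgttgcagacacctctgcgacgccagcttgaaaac
Tiparp: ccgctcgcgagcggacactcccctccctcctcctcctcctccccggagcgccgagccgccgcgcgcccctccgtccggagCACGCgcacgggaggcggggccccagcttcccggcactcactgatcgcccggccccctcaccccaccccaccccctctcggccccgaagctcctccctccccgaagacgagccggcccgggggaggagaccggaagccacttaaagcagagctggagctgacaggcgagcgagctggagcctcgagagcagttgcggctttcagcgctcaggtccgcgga
Nqo1: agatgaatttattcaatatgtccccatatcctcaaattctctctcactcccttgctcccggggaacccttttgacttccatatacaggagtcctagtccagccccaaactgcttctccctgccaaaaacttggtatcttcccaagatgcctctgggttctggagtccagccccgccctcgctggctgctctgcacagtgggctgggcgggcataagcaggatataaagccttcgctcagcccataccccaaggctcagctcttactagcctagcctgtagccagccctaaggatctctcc

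Of the 7 members with a promoter in the RefSeq table (all but *Ahr*), 5 held GCGTG on either strand: *Cyp1a1*, *Cyp1b1*, *Tiparp* and *Arnt* once each, and *Ahrr* 3 times. These 5 letters are common, and 32.4% of 32851 promoters of the same length held them. The longer TNGCGTG, which contains the core, was found only in *Ahrr* among the 7, against 5.07% of all promoters. *Arnt2* and *Nqo1* held neither. The core of the antioxidant response element, TGACNNNGC, through which the transcription factor Nrf2 acts, was found 2 times in *Arnt* and in 12.4% of all promoters, and not in this window of *Nqo1*. The well-known response elements of *Cyp1a1* that lie further upstream are outside these windows.

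The members span several chromosomes on GRCm38 (GENCODE M21). *Ahr* lies at chr12:35497974-35535038 (minus strand), *Arnt* at chr3:95434388-95497240 (plus), *Arnt2* at chr7:84246278-84410176 (minus) and *Ahrr* at chr13:74211118-74292331 (minus). *Cyp1a1* lies at chr9:57687928-57703824 (plus), *Cyp1b1* at chr17:79701537-79715061 (minus), *Tiparp* at chr3:65528410-65555518 (plus) and *Nqo1* at chr8:107388225-107403206 (minus).

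In naive ganglia the pathway was present with its canonical inducible target almost silent. To compare genes with each other, CPM were divided by exon length in kilobases (exon RPKM). In naive control ganglia *Cyp1b1* (12.7), *Tiparp* (12.2), *Arnt2* (10.9) and *Nqo1* (9.83) were the highest on that scale, *Ahr* (3.42) and *Arnt* (2.20) lower, *Ahrr* (0.558) lower again, and *Cyp1a1* (0.158) the lowest. Within each library the exon level of *Arnt2*, the partner typical of the nervous system, was 4.12 to 5.82 times that of *Arnt* in the 6 naive libraries, 4.64 to 5.75 times in the 6 injured, 3.74 to 4.82 times in the 8 sham and 2.22 to 2.69 times in the 6 neuron libraries. On exon length *Arnt2* was thus the more abundant partner in every library, by the smallest margin in the cultured neurons. Divided by gene span with introns, as in the deposited FPKM, the ratio was 0.818 to 0.991 in the neuron libraries. It was then 1.52 to 2.14 in naive, 1.71 to 2.12 in injured and 1.38 to 1.78 in sham libraries. The order of the partners in neurons therefore depended on the length used.

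Across the 10 groups the members did not share an order. *Ahr*, *Arnt*, *Arnt2*, *Cyp1a1*, *Tiparp* and *Nqo1* had their 6 highest libraries among the neurons, as did 20.7% of 24101 genes with enough counts, whereas by group mean *Cyp1b1* was highest in injured and *Ahrr* in naive ganglia. When the 10 groups were ranked by mean CPM, neighbouring groups overlapped in 9 of 9 pairs for *Ahrr*, 8 of 9 for *Arnt*, *Cyp1a1* and *Nqo1*, 6 of 9 for *Ahr*, *Arnt2* and *Cyp1b1*, and 4 of 9 for *Tiparp*. Most steps in the order were therefore within the spread of the libraries. The steps without overlap lay between settings or sides, except that from cKO to control neurons for *Tiparp*. The plot of CPM by library shows this for each gene.

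**Figure D1:**
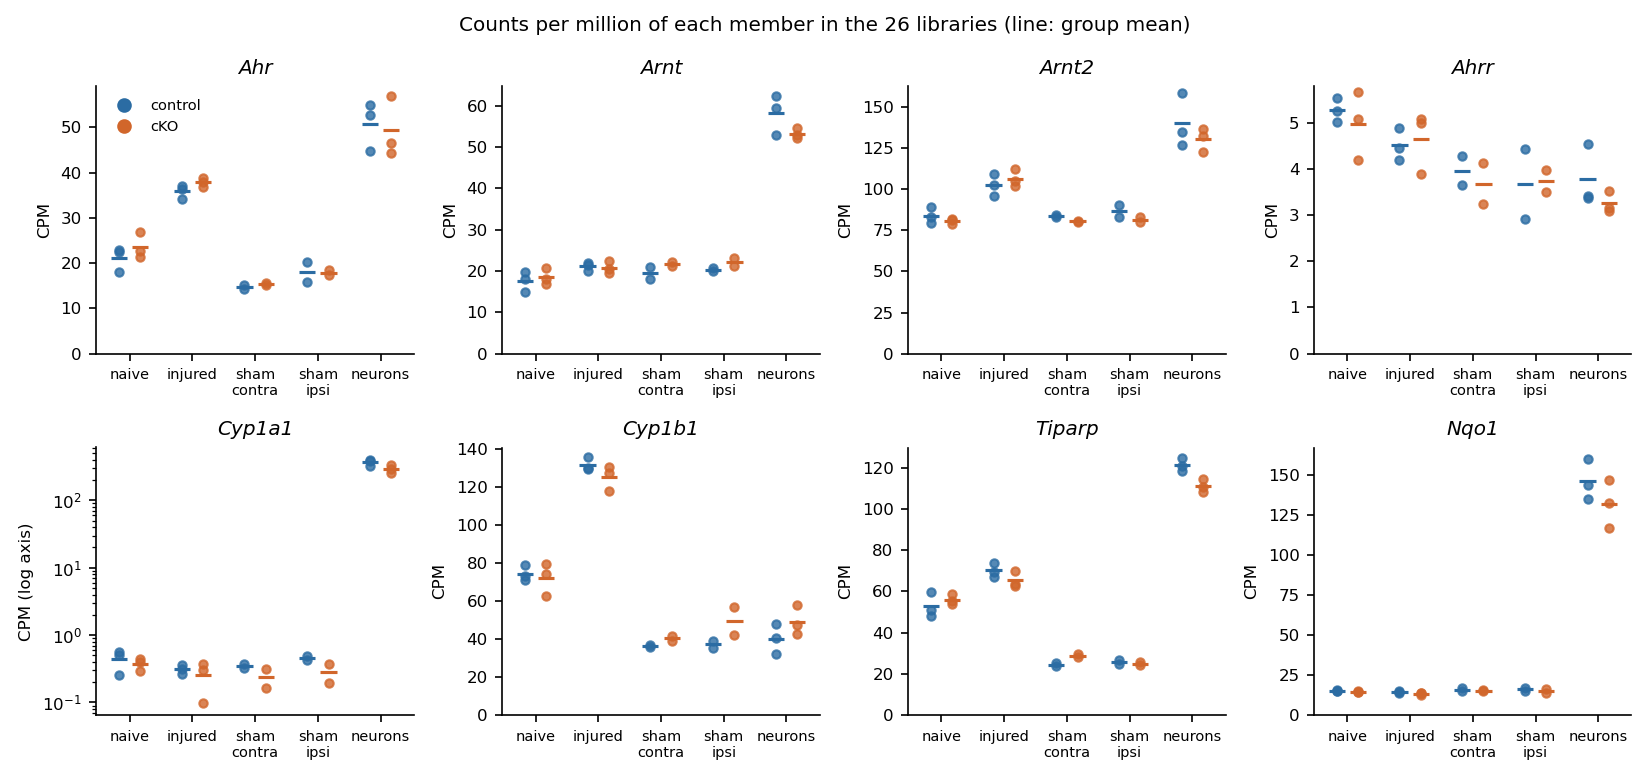
CPM of each of the 8 genes in the 26 libraries by setting (points: libraries; lines: group means; blue: control; orange: cKO), on linear axes from 0 except for *Cyp1a1*, which has a log axis. *Cyp1a1* lies at 0.0985 to 0.554 CPM in the 20 ganglion libraries and at 258 to 402 CPM in the 6 neuron libraries.

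The receptor gene rose 1 day after crush. *Ahr* was at 18.0, 22.5 and 22.8 CPM in the 3 naive controls and at 36.3, 37.0 and 34.2 CPM in the 3 injured controls. The cKO ganglia had 22.7, 26.8 and 21.4 CPM of it when naive and 37.8, 38.8 and 36.9 CPM after crush. Every injured library lay above every naive library in both genotypes. The log2 fold change was 0.76 ± 0.09 (SE; adjusted p = 1.57e-04, edgeR's quasi-likelihood test) in control and 0.66 ± 0.09 (adjusted p = 4.59e-04) in cKO ganglia, or 1.70-fold and 1.58-fold. In bulk ganglia, more cells of a type and more RNA per cell cannot be told apart.

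*Arnt2* rose as well, and *Arnt* did so only on average. *Arnt2*, at 79.5 to 89.1 CPM in naive and 95.8 to 109 CPM in injured controls, changed by 0.29 ± 0.06 (log2; adjusted p = 0.00412), and by 0.38 ± 0.06 (adjusted p = 7.84e-04) in cKO ganglia, without overlap in either genotype. *Arnt*, the obligate partner in most tissues, moved by 0.27 ± 0.10 (adjusted p = 0.0902) in control and 0.15 ± 0.10 (adjusted p = 0.367) in cKO ganglia. Its mean over both genotypes, 0.21 ± 0.07, passed the threshold narrowly (adjusted p = 0.0453), and without any 1 of 10 of the 12 libraries it did not (adjusted p up to 0.121). The repressor gene *Ahrr* did not pass the test, at -0.22 ± 0.14 in control and -0.11 ± 0.14 in cKO ganglia (adjusted p = 0.283 and 0.660). The exon level of *Ahr* was 4.99 to 9.80 times that of *Ahrr* in the naive libraries and 11.1 to 15.3 times in the injured, ranges that do not overlap.

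The targets went separate ways after crush. *Cyp1b1*, a cytochrome P450 of steroid and retinoid metabolism, was at 73.1, 71.3 and 78.9 CPM in naive controls and at 129.8, 129.7 and 136 CPM in injured controls. In cKO ganglia it was at 62.4, 74.4 and 79.3 CPM when naive and at 128, 130.4 and 118 CPM when injured. Both genotypes show injured libraries far above naive ones, with log2 fold changes of 0.83 ± 0.08 (adjusted p = 2.25e-05) and 0.78 ± 0.08 (adjusted p = 4.07e-05). *Tiparp*, at 48.1, 51.1 and 59.6 CPM in naive and 73.9, 69.4 and 67.2 CPM in injured controls, rose by 0.41 ± 0.08 (adjusted p = 0.00275). In cKO ganglia *Tiparp* was at 54.0 to 58.5 CPM when naive and 62.8 to 70.1 CPM when injured, with no overlap and a log2 fold change of 0.21 ± 0.08 that did not pass (adjusted p = 0.0765). The cKO effect minus the control effect was -0.19 (95% interval -0.43 to 0.04, adjusted p = 1.00) and is not shown to differ from 0.

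*Cyp1a1* and *Nqo1* had no called change after crush. *Cyp1a1* had 6 to 14 counts in each naive and 2 to 9 counts in each injured library. At this depth its mean effect over both genotypes, -0.50 on the log2 scale, carried an interval of -1.13 to 0.13. That of *Cyp1b1* was 0.80 (interval 0.69 to 0.92). *Cyp1a1* passed the filter on low counts only through naive libraries, so its interval was not read as a limit on a rise. With no filter on low counts the interval was -1.12 to 0.12. *Nqo1*, an NADPH-dependent quinone reductase driven by Nrf2 as well as AhR, was at 14.1 to 15.5 CPM in the 6 naive and 12.6 to 14.8 CPM in the 6 injured libraries, with a mean effect of -0.12 (interval -0.22 to -0.01, adjusted p = 0.0791).

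In all, 4 of 8 members were called in control ganglia, all higher, where 21.6% of 21261 tested genes were called (12.9% higher). In cKO ganglia 3 of 8 were called, all higher, where 18.7% were called (10.8% higher). Over both genotypes together 5 of 8 were called, all higher, against a background of 34.1% (18.4% higher). The median log2 fold change of the 8 was 0.28 in control and 0.18 in cKO ganglia, against -0.02 and -0.00 over all genes tested. Regardless of the test, naive and injured controls did not overlap for 7 of 8 members, 5 of them higher (21.1% of all genes) and *Ahrr* and *Nqo1* lower (17.1%). In cKO ganglia 4 lay higher without overlap (18.5%) and 1, *Nqo1*, lower (17.6%). No member showed a genotype by injury interaction (0 of 8 called and 0 at an unadjusted p under 0.05; 0% of all genes called; 0 of 8 by DESeq2).

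**Figure D2:**
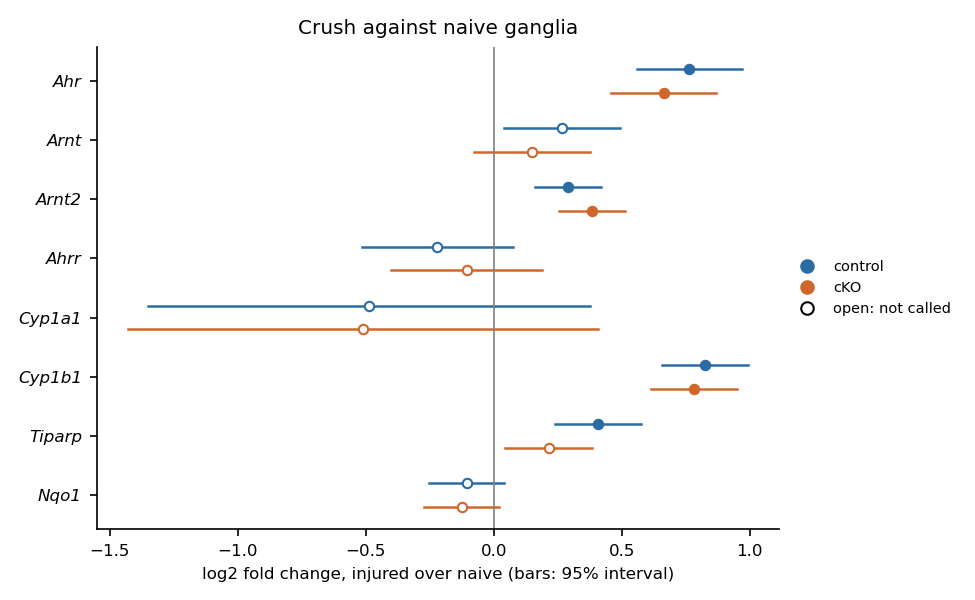
Log2 fold change of each gene after crush (injured over naive) in control (blue) and cKO (orange) ganglia, with 95% intervals; filled points passed an adjusted p of 0.05. *Ahr* and *Cyp1b1* lie between 0.66 and 0.83 in both genotypes, and *Cyp1a1* has the widest intervals.

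Marker genes of other cell types were read beside these changes. Among 6 endothelial markers 0 were called higher and 1 lower after crush in control ganglia, and their summed level was 119 to 158 CPM in naive and 124 to 134 CPM in injured controls. Of 6 fibroblast markers 0 were called in either genotype and 1, *Lum*, lower in the average (-0.42, adjusted p = 0.0417). Of 8 neuron markers 0 were called higher; *Isl1* was called lower in both genotypes (-0.33 and -0.32) and *Rbfox3* in cKO ganglia (-0.26). Of 6 mural cell markers 1, *Rgs5*, was called higher in control (0.41) and 0 in cKO ganglia, and averaged over genotypes *Rgs5* was called higher and *Pdgfrb* (-0.28) and *Kcnj8* (-0.45) lower. Their sum was 295 to 340 CPM in naive and 386 to 408 CPM in injured controls, and 295 to 379 against 372 to 409 CPM in cKO ganglia. Of 5 satellite glia markers 2 were called higher and 1 lower in control and 1 higher in cKO ganglia, with the glutamine synthetase gene *Glul* higher in both (0.58, adjusted p = 4.28e-04, and 0.48, adjusted p = 0.00160). The satellite glia sum did not overlap between naive and injured ganglia, at 642 to 672 against 799 to 851 CPM in controls and 623 to 771 against 817 to 911 CPM in cKO mice. No marker of these lists was at 0 in all libraries of a group. The part of the mural and satellite glia signal in the rise of *Ahr*, *Arnt2* and the targets was not tested.

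Genes around the pathway had few calls with crush within a genotype, to be read against the 21.6% of all genes called in control and 18.7% in cKO ganglia, and more in the average over genotypes, where 34.1% of all genes were called. Of 5 genes of the cytoplasmic complex, 1 was called in controls, the kinase gene *Src* (0.46, adjusted p = 0.00104), and 0 in cKO ganglia, where *Src* was at 0.21 (adjusted p = 0.0718); the difference between genotypes was -0.25 and not called. Averaged over genotypes, *Src* (0.33), the chaperone gene *Hsp90aa1* (0.20) and *Ptges3* (0.17), which encodes the cochaperone p23, were higher. Of 9 tested bHLH-PAS relatives, *Hif1a*, the hypoxia factor that shares ARNT with AhR, rose in both genotypes (0.50 and 0.35). The clock gene *Arntl* was at -0.68 in controls (adjusted p = 0.0300) and -0.59 in cKO ganglia (adjusted p = 0.0603), and its relative *Npas2* at -0.57 (adjusted p = 0.0504) and -0.58 (adjusted p = 0.0494), so each passed in 1 genotype, with no called difference between genotypes. The average over genotypes called 5 of the 9, with *Hif1a* (0.42), *Npas3* (0.42) and *Clock* (0.11) higher and *Arntl* (-0.64) and *Npas2* (-0.57) lower. Of 12 coregulators and turnover factors only the corepressor gene *Nrip1* was called, higher by 1.09 in control and 1.03 in cKO ganglia. Of 10 genes that make or clear tryptophan-derived ligands, 7 were tested and *Il4i1*, an amino acid oxidase that yields AhR agonists, was the only one called within a genotype, at 0.41 and 0.33; averaged over genotypes the aminotransferase gene *Kyat3* was also called, lower (-0.29).

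Of 21 other genes reported as AhR-responsive, 14 were tested after crush. In controls 4 were called higher and 2 lower. Averaged over genotypes 6 were called higher and 2 lower, where 34.1% of all genes were called and 18.4% were higher. The average added *Ugt1a6a* and *Ugt1a6b* (0.28 each), which share exons and counts. The cytokine *Il6* had 1 to 9 counts in each naive and 74 to 113 in each injured library, and rose by 4.26 in control and 3.78 in cKO ganglia. *Il6* passed the filter on low counts only through injured libraries, so its being higher there followed from the filter. *Nfe2l2*, which encodes Nrf2, rose by 0.40 and 0.31, the cytokine suppressor *Socs2* by 0.88 and 0.75, and the amino acid transporter *Slc7a5* by 0.68 and 0.46. The actin-severing *Scin* fell by 0.63 and 0.57, and the cytochrome gene *Cyp2s1* fell in controls (-0.67) and was at -0.24 in cKO ganglia (adjusted p = 0.381), a difference between genotypes that was not called. Of 12 Nrf2 targets beside *Nqo1*, *Txnrd1* (0.79 and 0.69) and *Srxn1* (1.28 and 1.33) rose and the epoxide hydrolase *Ephx1* fell (-0.46 and -0.50). *Gclc* fell in cKO ganglia (-0.30) and was at -0.18 in controls (adjusted p = 0.0651), a difference that was not called. Averaged over genotypes 3 Nrf2 targets were called higher, with *Hmox1* (0.20) added, and 2 lower. The list median was 0.31 for the AhR-responsive genes and 0.11 for the Nrf2 targets in controls, where all genes had -0.02. The median of 0.31 counts the *Ugt1a* genes, which share exons and counts, as separate genes.

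The genes whose level followed *Ahr* most closely over the 12 naive and injured libraries were *Sowahc* (Pearson r = 0.988), *Smad4* (0.981), *Nsd3* (0.980), *Fam151a* (0.979) and *Hnrnpc* (0.978), given as a description. The 12 libraries share 1 injury step, and 806 of 13887 genes with a mean of at least 1 CPM had r over 0.9 with *Ahr*. Within the 6 naive libraries r was 0.911 for *Sowahc* and within the 6 injured 0.611. *Cyp1b1* was followed most closely by *Stk40* (0.987), *Gadd45g* (0.983) and *Bach1* (0.982). *Tiparp* had fewer followers, 85 genes with r over 0.9, led by the repressor gene *Bcl6* at 0.971, with 0.939 in the naive and 0.939 in the injured libraries taken alone.

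Genotype had no called effect on any of the 8 genes in any setting. The number called was 0 of 8 in naive ganglia (0.00941% of all genes called), 0 in injured ganglia (0.00941%), 0 in neurons (0% of 23295 genes), 0 in sham ipsilateral (0.00451% of 22160) and 0 in sham contralateral ganglia (0%), and DESeq2 also called 0 in each. At an unadjusted p under 0.05 there were 0 members in naive (5.79% of all genes) and in injured ganglia (2.72%) and 1 of 8 in neurons (8%), in sham ipsilateral (7.59%) and in sham contralateral ganglia (5.23%), so that 1 member in a setting is near the share of all genes. Averaged over settings, with both sides of a sham mouse summed, 0 of 8 were called (0.0174% of 22946 genes) and 1, *Nqo1*, had an unadjusted p under 0.05 (4.24% of all genes). With CPM scaled within each fit, the groups were without overlap for 0 members in naive ganglia (11.5% of all genes), for *Ahr*, higher, in injured ganglia (4.16%) and for *Tiparp*, lower, in neurons (7.69%). With 2 mice per genotype, 2 members were higher (17.6%) and 1 lower (15.7%) in sham ipsilateral and 3 higher (19.9%) and 2 lower (19.1%) in sham contralateral ganglia. On the CPM printed here, which are scaled over all 26 libraries, *Ahr* in injured ganglia did overlap, while *Nqo1* in naive and *Arnt2* in sham ipsilateral ganglia were lower in cKO without overlap.

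Naive ganglia held 21.1 ± 2.69 CPM of *Ahr* (SD, n = 3) in controls and 23.6 ± 2.81 CPM in cKO mice. Control neurons held 50.8 ± 5.34 CPM of it and cKO neurons 49.3 ± 6.75 CPM (SD, n = 3 each). Its cKO-over-control difference averaged over settings was 0.06 on the log2 scale, with an interval of -0.06 to 0.18, and it lay between -0.05 (neurons) and 0.17 (naive) in the 5 settings. A loss of more than 0.06 in summed gene counts lies outside that interval, which says nothing of a deleted stretch within the transcript. *Arnt* and *Arnt2* averaged 0.01 (-0.09 to 0.12) and -0.04 (-0.13 to 0.04), and *Ahrr* -0.08 (-0.23 to 0.08).

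*Cyp1a1*, *Cyp1b1* and *Tiparp* each had 1 setting with an unadjusted p under 0.05. In neurons *Cyp1a1* was at 379.7, 402 and 322 CPM in controls and at 258, 337 and 289.7 CPM in cKO libraries, so that 1 cKO library lay within the control range; the difference was -0.33 (interval -0.59 to -0.06, adjusted p = 0.579). In the ganglia, at 2 to 23 counts, its 4 differences ran from -0.65 to -0.23 with intervals that all include 0, and the average over settings was -0.35 (-0.71 to 0.01). The direction was thus lower in cKO in all 5 settings without passing the test in any. The sham sides share mice, and the share of all genes with 1 direction throughout was not counted. In sham ipsilateral ganglia *Cyp1b1* was at 38.9 and 35.4 CPM in controls and 57.0 and 41.8 CPM in cKO mice (0.45, interval 0.12 to 0.77, adjusted p = 0.540), with the higher value in cKO mouse 1, without which the difference was 0.19. With no filter on low counts this was the only genotype call among the members (0.43, adjusted p = 0.0486). Fibroblast markers summed to 463 to 774 CPM in those controls and 801 to 862 CPM in those cKO ganglia, and their part in the difference was not tested.

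*Tiparp* differed in sign between settings. It was at 25.2 and 23.8 CPM in sham contralateral controls and 29.8 and 27.9 CPM in cKO mice (0.23, interval 0.04 to 0.43, adjusted p = 0.880), but at 125, 118 and 121 CPM in control neurons and 111, 108 and 115 CPM in cKO neurons (-0.13, interval -0.28 to 0.02, adjusted p = 0.635). Neither pair of groups overlapped. *Nqo1* was lower in cKO by 0.04 to 0.15 in each of the 5 settings on the log2 scale, and by 0.10 on average (difference -0.10, interval -0.18 to -0.01, adjusted p = 1.00). Here too the sham sides share mice.

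**Figure D3:**
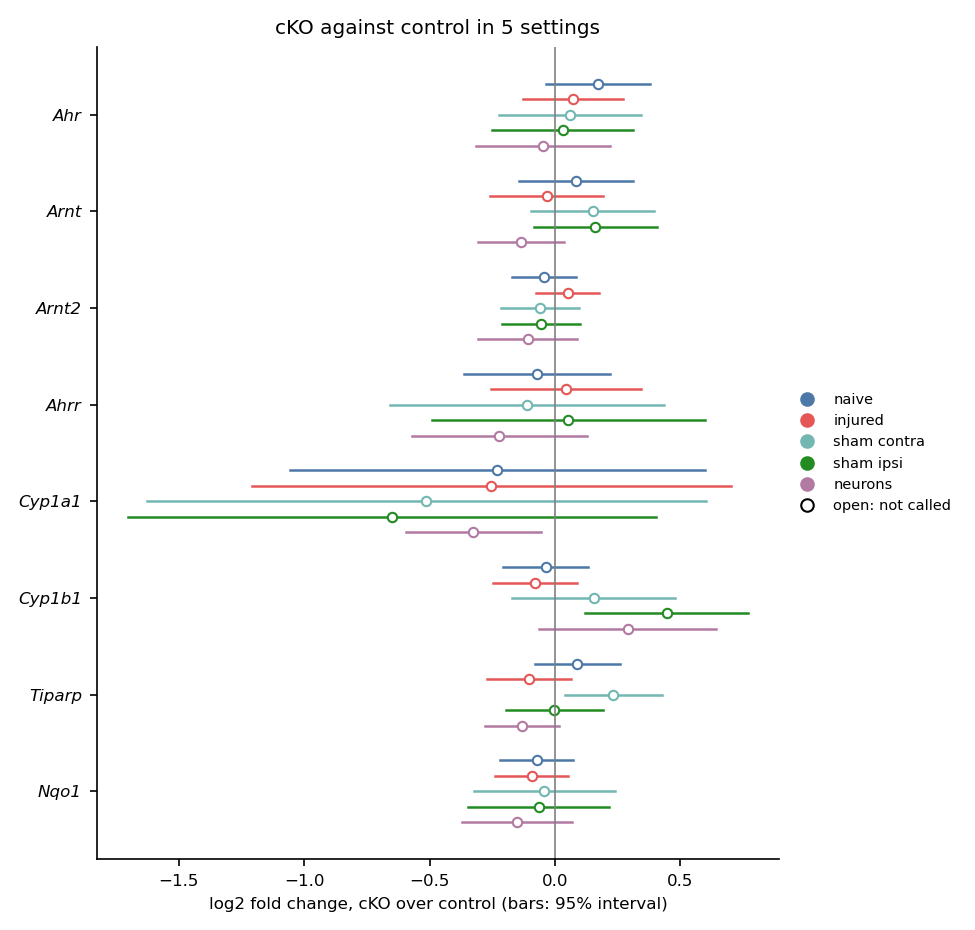
Log2 difference between cKO and control libraries for each gene in 5 settings, with 95% intervals; open points did not pass an adjusted p of 0.05. Every point is open, *Cyp1a1* lies left of 0 in every setting, and its ganglion intervals are the widest.

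None of these genes was called by edgeR between the operated and the other side of sham mice, and none by DESeq2. Averaged over genotypes 0 of 8 members were called (0.00451% of all genes), and 1, *Ahr*, had an unadjusted p under 0.05 (7.56% of all genes). *Ahr* was at 15.9 and 20.1 CPM on the operated and 15.2 and 14.2 CPM on the other side of controls, and at 17.3 and 18.5 against 15.6 and 15.1 CPM in cKO mice, each pair from the same 2 mice. All 4 mice were higher on the operated side, and the share of all genes with this pattern was not counted. The mean difference was 0.28 (interval 0.08 to 0.48, adjusted p = 0.512), from a fit without a term for mouse. The genotype by side interaction had 0 of 8 members called, 0 at an unadjusted p under 0.05 and 0 by DESeq2 (0% of all genes).

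The 2 tables differed in the resting level of several members. *Tiparp* was 2.16-fold higher in naive than in sham contralateral controls and *Cyp1b1* 2.06-fold, with cKO ratios of 1.94 and 1.79. *Ahr* was 1.44-fold and 1.54-fold higher, whereas *Arnt2* (1.00 and 1.00) and *Nqo1* (0.973 and 0.942) were at like levels. For *Tiparp*, *Cyp1b1* and *Ahr* every naive library lay above every sham contralateral one, as for 26.3% of all genes. Sex, surgery, table and any tamoxifen treatment differ together between these groups and cannot be told apart, so no test was made.

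Cultured neurons stood apart from ganglia chiefly in *Cyp1a1*. It had 9582 to 35247 counts in each neuron library and 2 to 23 in each of the 20 ganglion libraries. The lowest neuron library, at 258 CPM, was 466 times the highest ganglion library, at 0.554 CPM. Against sham contralateral ganglia of the same table, chosen as reference after values were seen, *Cyp1a1* was higher by 10.11 ± 0.23 on the log2 scale in controls and 10.32 ± 0.24 in cKO (adjusted p = 1.06e-10 and 1.76e-10), 1186-fold over both. Only 14 of 24192 tested genes had a larger difference, and in mean CPM over the neuron libraries *Cyp1a1* ranked 402 of 37736 genes with counts.

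Of the other 7 members, 5 were higher without overlap in either genotype, by less. *Nqo1* was at 144, 159.5 and 135 CPM in control neurons against 16.6 and 14.8 CPM in sham contralateral controls, a difference of 3.23 ± 0.09 over both genotypes (9.38-fold, adjusted p = 3.10e-11). *Tiparp* differed by 2.20 ± 0.05 (4.58-fold), *Ahr* by 1.81 ± 0.09 (3.49-fold), *Arnt* by 1.51 ± 0.07 (2.85-fold) and *Arnt2* by 0.79 ± 0.07 (1.73-fold), each called and without overlap in either genotype. Libraries did not overlap for 6 of 8 members in controls (39.8% of all genes higher without overlap) and 7 in cKO (41.6%). *Cyp1b1* differed by 0.28 ± 0.12 (adjusted p = 0.0486), a call lost with the ipsilateral side as reference (0.10, adjusted p = 0.461), with RLE factors (adjusted p = 0.0547), at 10 counts in every library (adjusted p = 0.0594) and without any 1 of 8 of the 10 libraries. *Ahrr* did not pass (-0.05 ± 0.15, adjusted p = 0.772).

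The size of these differences, and for *Cyp1b1* the direction, depended on the ganglia taken as reference. Mean CPM of *Tiparp* in neurons were 2.29 times those of naive and 1.73 times those of injured ganglia in controls, and 1.99 and 1.70 times in cKO. For *Ahr* the ratios were 2.41 and 1.42 in controls and 2.09 and 1.30 in cKO. *Cyp1b1* in neurons was at 0.538 of naive and 0.304 of injured ganglia in controls, and at 0.682 and 0.392 in cKO, below both. These ratios cross the 2 tables and were not tested.

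*Cyp1a1* and *Cyp1b1*, both classic AhR targets, were in opposite order in neurons and ganglia. The exon level of *Cyp1b1* was 66.6 to 136 times that of *Cyp1a1* in naive, 152 to 631 times in injured and 34.7 to 139 times in sham libraries, the upper bound in injured ganglia coming from the library with 2 counts. In the 6 neuron libraries *Cyp1a1* was 11.4 to 21.0 times *Cyp1b1*. On that scale the order in control neurons was *Cyp1a1* (132), *Nqo1* (94.0), *Tiparp* (27.9), *Arnt2* (18.3), *Ahr* (8.25), *Arnt* (7.27), *Cyp1b1* (6.86) and *Ahrr* (0.400).

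In all, 7 of 8 members were called over both genotypes, all higher than in sham contralateral ganglia (*Cyp1b1* was below naive and injured ones), where 75.5% of genes were called and 39.1% were higher. In each genotype taken alone 6 of 8 were called, all higher, against 67.8% of genes called in control (35.2% higher) and 64.7% in cKO (33.9% higher). In cKO, *Cyp1b1* was a further call with no filter on low counts (0.40, adjusted p = 0.0270). Being called was thus common among all genes, and the members' median difference was 1.66, against 0.04 over all genes. The genotype by culture interaction was called for 0 of 8 members (0.00413% of all genes), with 1, *Tiparp*, at an unadjusted p under 0.05, as were 2104 of all genes tested (-0.34, interval -0.53 to -0.14, adjusted p = 0.571), and DESeq2 called 0 of 8.

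**Figure D4:**
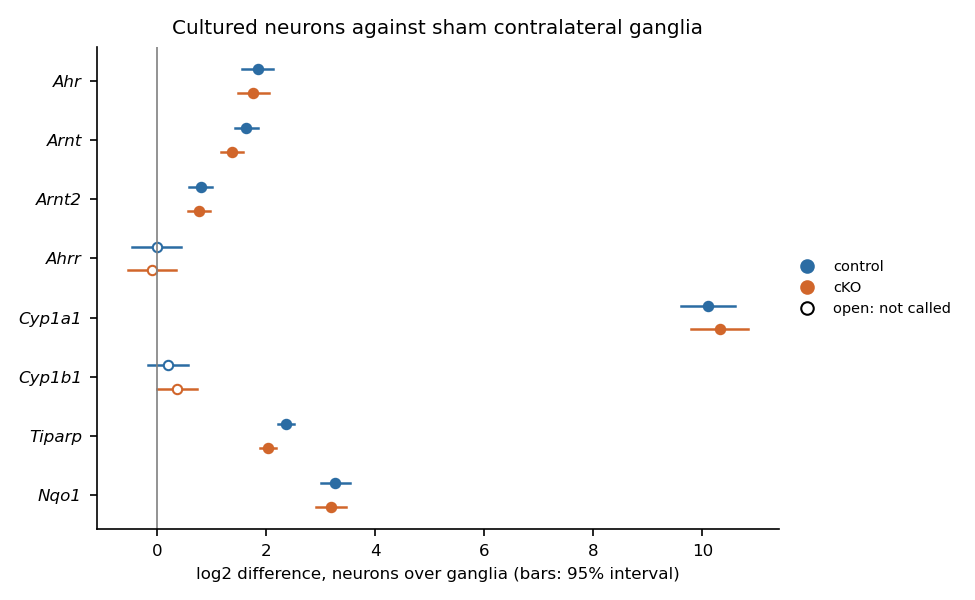
Log2 difference of each gene between cultured neurons and sham contralateral ganglia in control (blue) and cKO (orange), with 95% intervals; filled points passed an adjusted p of 0.05. *Cyp1a1* lies above 10 in both genotypes, *Nqo1* above 3, and *Ahrr* at about 0.

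The neuron libraries also differed from sham contralateral ganglia in sex, in culture, in the cells they held and, for the controls, in the dose of floxed *Ahr*. Within this comparison these cannot be told apart. The 6 naive ganglia, female like the neurons, held *Cyp1a1* at 0.257 to 0.554 CPM and *Nqo1* at 14.1 to 15.5 CPM. *Cyp1a1* was at 0.554 CPM in the fl/fl naive control and at 0.366 CPM in the fl/fl sham contralateral control. The part of sex and of dose was not tested. The 8 neuron markers were all lower than in sham contralateral ganglia (summed 3937 to 4601 CPM in neurons, 8835 to 9978 CPM in those ganglia), and the 6 Schwann cell markers were all lower (685 to 838 against 3542 to 5488 CPM). All 6 endothelial markers were higher, between 2.44 for *Cldn5* and 4.31 for *Cdh5* on the log2 scale, and summed to 993 to 1486 CPM against 82.0 to 145 CPM. The sums were lower for satellite glia (508 to 569 against 678 to 741 CPM) and fibroblasts (244 to 456 against 523 to 903 CPM). They were higher for macrophages (174 to 193 against 134 to 158 CPM) and mural cells (346 to 387 against 242 to 299 CPM). Single markers of these 4 lists went both ways. The libraries labelled as semi-purified neurons thus held fewer neuron and Schwann cell marker transcripts and more endothelial ones than sham contralateral ganglia. The part of endothelial cells in the level of *Cyp1a1*, a gene that vessels can also express, was not tested, nor was that of the other cell types.

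**Figure D5:**
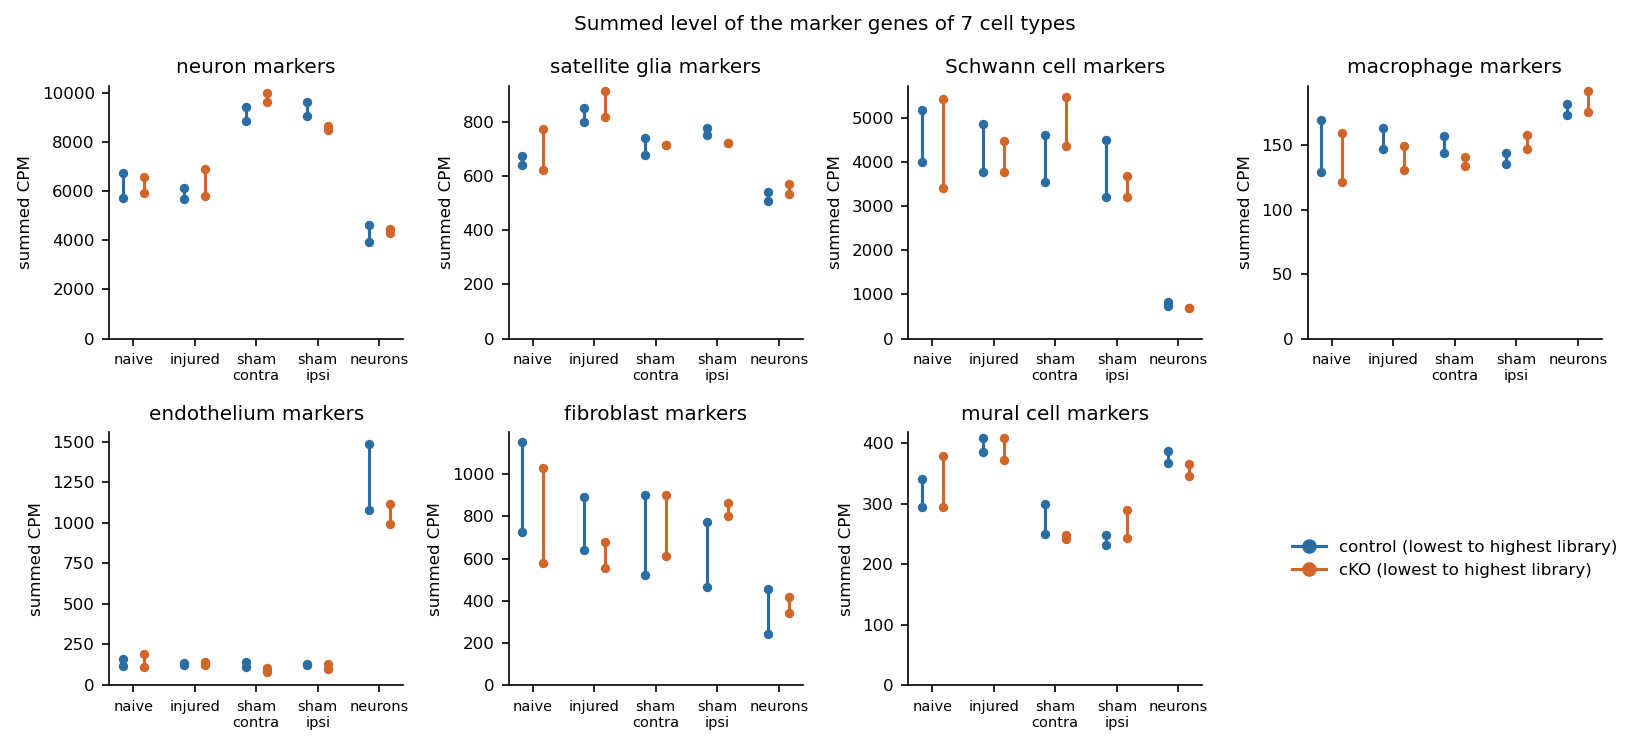
Summed CPM of the marker genes of 7 cell types by setting (points joined by a line: lowest and highest library of a group; blue: control; orange: cKO). Neuron libraries are lowest for Schwann cell markers (685 to 838 CPM) and highest for endothelial markers (993 to 1486 CPM).

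Other genes of the pathway were split in culture. Of 12 Nrf2 targets beside *Nqo1*, 11 were higher and 0 lower, where 75.5% of all genes were called and 39.1% were higher, led by the cystine transporter *Slc7a11* (7.05), the heme oxygenase gene *Hmox1* (5.17) and *Osgin1* (5.06), with a list median of 1.63. Of the 21 other AhR-responsive genes, 14 had enough counts in sham ganglia alone. Of these 6 were higher and 8 lower, 5 of the 8 being *Ugt1a* genes of 1 locus. The median of -0.53 counts these 5 separately and so gives 1 locus the weight of 5 genes. Another 6 were tested only through their counts in neurons, so that their being higher there followed from the filter. *Cyp1a2*, the close relative of *Cyp1a1*, had only 6 to 24 counts in each neuron library and 0 or 1 in each sham contralateral library. The growth factor *Ereg* had 335 to 1380 counts per neuron library and 0 or 1 per sham contralateral library, and *Il6* had 1380 to 6252 against 4 to 14. *Cyp2s1* was lower, by 2.90 on the log2 scale (-2.90), and so were all 5 *Ugt1a* genes, which share exons and counts and are not separate measurements.

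Partners and coregulators were mixed as well. Of 9 bHLH-PAS relatives with enough counts in sham ganglia alone, 6 were higher, among them *Hif1a* (1.68) and *Arntl* (1.86), and 1, *Hif3a*, was lower (-2.19). Of 12 coregulators 9 were higher, against 39.1% of all genes, among them *Rb1* (1.86) and *Nrip1* (1.35), and 3 were lower, among them the ubiquitin ligase gene *Stub1* (-0.42). Among the genes of the cytoplasmic complex reported here, *Src* (1.01) and *Ptges3* (0.39) were higher. Of 8 tested genes of tryptophan-derived ligands 2 were higher, *Ido2* (2.80) and *Il4i1* (1.27), and 4 lower. In none of these lists was a gene called for genotype in any setting.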

How the data were processed

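Messenger RNA was sequenced from 26 libraries in 10 groups. The authors deposited whole-number counts per gene and FPKM for 55401 genes, in a table of 12 naive and injured libraries and a supplemental table of 14; per the submitters' processing notes reads were trimmed with Trim Galore, aligned with HISAT2 to mm10 and counted with featureCounts, and the strand setting is not given in the sources used here. The deposited FPKM divide by the gene span with introns (100% of values within 0.1%), so they were not tested, and levels between genes were compared as CPM per exon kilobase (GENCODE M21). Symbols matched 99.5% of gene IDs.

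Counts were tested with edgeR 4.0.16 (R 4.3.3, limma 3.58.1): TMM scaling, filterByExpr (minimum count 10, total 15), quasi-likelihood test, two-sided, Benjamini-Hochberg adjustment over all genes, called at an adjusted p under 0.05. Separate fits held the 12 naive and injured libraries, the 6 neuron libraries, the 8 sham libraries, 22 units with the sides of a sham mouse summed, and the 14 supplemental libraries. The last, which sets neurons against sham ganglia, was added after values were seen. Errors beside log2 differences are SE, intervals are 95%, and CPM levels use TMM factors over all 26 libraries; counting error of low counts is part of these. Members and gene lists were chosen with earlier results of these data known; text on the lists names genes that were called, except 1 that is not reported here. The genes most like a member were ranked by Pearson r of log CPM among genes with a mean of at least 1 CPM.

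Replicates are separate mice, except that both sides of a sham mouse share the animal; for neurons the labels number the mice. Deviations of same-numbered samples correlated between -0.56 and 0.53, so numbers were not taken to pair samples; for the sham sides, where the mouse is shared, r was 0.29 in control and -0.30 in cKO mice, and a mouse block was tried. DESeq2 1.42.0, RLE factors, other filters, a threshold of 0.1, replicate blocks, sex as a covariate and leaving out libraries were tried as alternatives. The fit was tested on simulated data. Promoter sequences are from RefSeq (GRCm38.p6), with motifs searched on both strands.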

Additional observations from a re-analysis of the deposited data

Results flagged for a closer look

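The genotype effect on *Tiparp* lay on opposite sides of 0 in 2 settings without overlap between the groups of either. In sham contralateral ganglia both cKO libraries were above both controls (0.23 on the log2 scale), and in cultured neurons all 3 cKO libraries were below all 3 controls (-0.13), a difference of 0.37 between the effects. The settings differ in sex, preparation and depth. It was the only such case among 80 pairs of settings over the 8 genes. The separate fits give no test of it. In the joint fit of the supplemental table the genotype by culture term, which sets the same groups against each other, was -0.34 for *Tiparp* (adjusted p = 0.571) and not called.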

How the results depend on the processing

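The calls for *Ahr*, *Arnt2* and *Cyp1b1* after crush held in both genotypes under every alternative run, as did those for *Cyp1a1*, *Nqo1*, *Tiparp*, *Ahr*, *Arnt* and *Arnt2* in culture wherever the gene was tested (*Cyp1a1* was not tested at 10 counts in every library). Members called ran from 4 to 5 after crush averaged over genotypes and from 6 to 7 in culture, averaged over genotypes and in cKO, when 1 library was left out. At 10 counts in every library 5 members were called in culture averaged over genotypes. With no filter on low counts 1 member was called for genotype in sham ipsilateral ganglia, *Cyp1b1*, where 626 genes were called in place of 1. At 2 to 23 counts in a ganglion library, *Cyp1a1* has the widest intervals among the members, and the sham comparisons rest on 2 mice per genotype.

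With the replicate block, *Arnt* averaged over genotypes was no longer called after crush (adjusted p = 0.0682), and 4 members were called; the block changed no other member call. The same call was lost with no filter on low counts (adjusted p = 0.0541), at 10 counts in every library (adjusted p = 0.0530) and without both sex-mismatched libraries (adjusted p = 0.115). The replicate block moved the count of all genes called for genotype from 2 to 1 in naive ganglia, from 0 to 5 in neurons and from 1 to 3 in sham ipsilateral ganglia. A mouse block moved that for sham side from 1 to 4.

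Some effects that never passed the test changed sign. With sex as a covariate, *Arnt* in injured ganglia was at 0.079 for genotype, the genotype by injury terms of *Cyp1a1* and *Nqo1* were 0.17 and 0.022, and the averaged genotype effect on *Tiparp* was 0.011. Without both sex-mismatched libraries, *Arnt* and *Arnt2* in injured ganglia were at 0.00071 and -0.028 for genotype, *Ahrr* after crush in cKO ganglia at 0.0034, and the genotype by injury term of *Cyp1a1* at 0.23. The genotype by side term of *Arnt2* was -0.0016 with RLE factors, -0.014 with no filter, -0.0060 at 10 counts in every library and -0.0020 with DESeq2, and that of *Arnt* -0.0062 with no filter. The genotype by culture term of *Arnt2* was 0.034 with no filter. With the ipsilateral side as reference, *Ahrr* in control culture was at 0.095 and the genotype by culture term of *Cyp1b1* at -0.12. The cause of these changes was not tested.

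Leaving out 1 library at a time, effects that crossed 0 ran as follows. The genotype by injury terms ran from -0.38 to 0.32 for *Cyp1a1*, -0.050 to 0.021 for *Nqo1*, -0.17 to 0.0030 for *Ahr*, -0.0035 to 0.23 for *Ahrr* and -0.14 to 0.033 for *Cyp1b1*. The genotype by side terms ran from -0.088 to 0.080 for *Arnt2*, -0.14 to 0.11 for *Arnt*, -0.17 to 0.084 for *Nqo1*, -0.13 to 0.52 for *Ahrr*, -0.18 to 0.12 for *Ahr* and -0.67 to 0.37 for *Cyp1a1*. The side effect ran from -0.19 to 0.12 for *Ahrr* and -0.046 to 0.085 for *Nqo1*. The culture difference of *Ahrr* ran from -0.17 to 0.097 in control, -0.25 to 0.018 in cKO and -0.13 to 0.0028 on average. The genotype by culture terms ran from -0.24 to 0.12 for *Ahrr*, -0.097 to 0.077 for *Arnt2*, -0.17 to 0.015 for *Nqo1* and -0.16 to 0.76 for *Cyp1a1*. The genotype effect in naive ganglia ran from -0.11 to 0.057 for *Cyp1b1*, -0.010 to 0.17 for *Arnt* and -0.17 to 0.047 for *Ahrr*. In injured ganglia it ran from -0.024 to 0.16 for *Ahrr*, -0.095 to 0.013 for *Arnt* and -0.60 to 0.095 for *Cyp1a1*. In sham ipsilateral ganglia it ran from -0.24 to 0.41 for *Ahrr*, -0.070 to 0.029 for *Tiparp*, -0.12 to 0.18 for *Ahr*, -0.14 to 0.019 for *Arnt2* and -0.22 to 0.049 for *Nqo1*. In sham contralateral ganglia it ran from -0.28 to 0.056 for *Ahrr* and -0.13 to 0.067 for *Nqo1*, in neurons from -0.17 to 0.026 for *Ahr*, and averaged over settings from -0.012 to 0.037 for *Arnt* and -0.029 to 0.011 for *Tiparp*.

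Counts over all genes moved more than those of the members. In cKO ganglia 3966 genes were called after crush, against 1414 with sex as a covariate and 2400 without both mismatched libraries. For genotype, the 2 calls in injured ganglia became 0 under either, and the 2 in naive ganglia 1 without those libraries and 0 in a fit of the 6 naive libraries. The 0 calls in neurons became 9 at a threshold of 0.1, 27 with no filter and 165 with DESeq2. In sham ganglia, ipsilateral calls were 152 with DESeq2, contralateral calls 59 with no filter, 29 with DESeq2 and 2 at 0.1, side calls 381, 200 and 2, and side interaction calls 144 and 12 with no filter and DESeq2. The averaged genotype calls went from 4 to 12 with DESeq2, and the genotype by culture calls from 1 to 3 at 0.1, 16 with no filter, 2 at 10 counts in every library, 27 with DESeq2 and 0 against the ipsilateral side. When 1 library was left out, genotype calls in sham ipsilateral ganglia rose from 1 to 98 without cKO mouse 1 and 30 without cKO mouse 2, side calls from 1 to 85 and 9, and side interaction calls from 0 to 28 without cKO mouse 1. The averaged genotype calls went from 4 to 20 and 7 without those mice. Genotype calls in injured ganglia went from 2 to 15 and interaction calls from 0 to 8 without cKO replicate 1, and injured calls to 0 without cKO replicate 3 and to 1 without the second replicate of either genotype. Those in neurons went from 0 to 15 without control replicate 1 and 6 without control replicate 3, naive calls from 2 to 1 without control 3, cKO 1 or cKO 2, and genotype by culture calls from 1 to 9 without neuron control replicate 3 and to 0 without sham control 2, cKO 1 or cKO 2.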
